A study of Homo sapiens with 28 samples.

Results

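The mRNAs of the secretory pathway and of vesicle transport were followed by their degradation rate constants in HEK293T cells, a human embryonic kidney line. They were picked by gene name: SEC genes, the COPI subunits COPA, COPB, COPE, COPG and COPZ, the SRP receptor, SSR1 to SSR4, signal peptidase, TMED, KDEL receptors, ARF1 to ARF6, RAB, VPS, PDIA, CANX and CALR. The rule took 47 of the 2568 transcripts that have a rate constant. By chemistry these were 32 of 1600 transcripts with iodoacetamide, 42 of 2262 with OsO4 and NH3, and 40 of 2209 with NaIO4 and TFEA. Of the 47 members, 29 were measured with all 3 chemistries, 9 with 2 and 9 with 1. No transcript of signal peptidase was among them.

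The cells were wild type and came from 1 line. They took up 4-thiouridine (s4U, 100 µM for 2 h), which enters newly made RNA, and control cells had none. The RNA was then treated with iodoacetamide, with osmium tetroxide and ammonia (OsO4 and NH3; called OsO4 here), or with sodium periodate and trifluoroethylamine at pH 5.2 (NaIO4 and TFEA; called NaIO4 here), each of which makes s4U read as C during sequencing. Each chemistry was applied under drop-out handling, the common way of collecting RNA and processing reads, and under improved handling, meant to lose less s4U RNA and fewer reads that carry T-to-C mismatches. Each combination had 2 labelled libraries and 1 unlabelled library. From the share of new reads the authors estimated 1 first-order degradation rate constant per transcript, chemistry and handling. A higher constant means a shorter-lived mRNA. The time unit is not stated, so no half-life is given here, and a single constant carries no replicate error.

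Proteins bound for the cell surface, the lysosome or the outside enter the endoplasmic reticulum (ER) through the SEC61 channel, to which the signal recognition particle and its receptor bring the ribosome. In the ER lumen, lectin chaperones (CALR, CANX) and protein disulfide isomerases (the PDIA family) fold them. COPII coats carry folded cargo to the Golgi, and COPI coats, recruited by ARF GTPases, carry escaped ER proteins back. RAB GTPases and the VPS complexes steer later steps towards endosomes and lysosomes. When unfolded protein builds up in the ER, the factors ATF6 and XBP1 raise transcription of folding genes through promoter motifs such as the ER stress element.

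The labelled libraries held 2302209 to 5813077 aligned reads under drop-out handling and 2129372 to 4707058 under improved handling. Of exonic reads, 10.4% to 17.4% had a T-to-C mismatch or more in the 6 labelled drop-out libraries and 24.7% to 33.2% in the 6 improved ones, and 2.56% to 3.57% did in the 6 unlabelled libraries. The groups of labelled libraries did not overlap, and these shares were counted with the same aligner and settings for both handlings. The read depth behind each member's constant was not analysed here. Of 10 HEK293T markers 5 had a rate constant (CKB, KRT18, NEFL, NEFM and VIM), and of 16 markers of liver, blood, stromal, endothelial and gland cells none had one. A gene without a constant may still be expressed, so these counts do not identify the cells.

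Most members had a higher rate constant under improved handling, as most transcripts did. By the adjusted p-values of the authors' deposited table (under 0.05), 18 of 32 members were higher with iodoacetamide, against 48.9% of all transcripts. With OsO4 the same table had 22 of 42 members higher, against 48.1%, and with NaIO4 21 of 40, against 52.6%. No member was called lower with any chemistry, against 1.44%, 0.442% and 0.679% of all transcripts in that order. These shares of members lie near the background. The members' median log2 change (improved over drop-out) in the authors' deposited table was 1.32, 1.24 and 1.10 in the same order, and that of all transcripts 1.14, 1.19 and 1.18. Less the median of all transcripts, the members' medians came to 0.18, 0.05 and −0.08, so their direction relative to the rest differed between chemistries.

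By the median, the members were long-lived compared with the rest, but groups within the set differed. Their median constant under improved handling was 0.0600 with iodoacetamide, where that of all transcripts was 0.0833. It was 0.0854 against 0.0998 with OsO4, and 0.0784 against 0.102 with NaIO4. As a rank from 0 (slowest) to 100 (fastest decay) among all transcripts of the same chemistry and handling, the median member stood at percentile 33.6, 41.1 and 36.2. Under drop-out handling it stood at 35.3, 43.2 and 38.5, so the set kept about its place. Below percentile 50 lay 23 of 32, 28 of 42 and 27 of 40 members under improved handling. The median VPS gene stood at percentile 70.5, 63.3 and 59.5 under improved handling, over 4, 7 and 6 genes in the same order of chemistries. Single VPS genes ranged widely, from 15.5 to 81.5 with iodoacetamide. With OsO4 the median gene was VPS72, which fits the name pattern alone. The median ER folding mRNA stood at 8.56, 16.6 and 11.5. The span of single members ran from KDELR1, at percentile 1.94 with iodoacetamide, to RAB11FIP5, at 97.5 with OsO4.

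**Figure D1:**
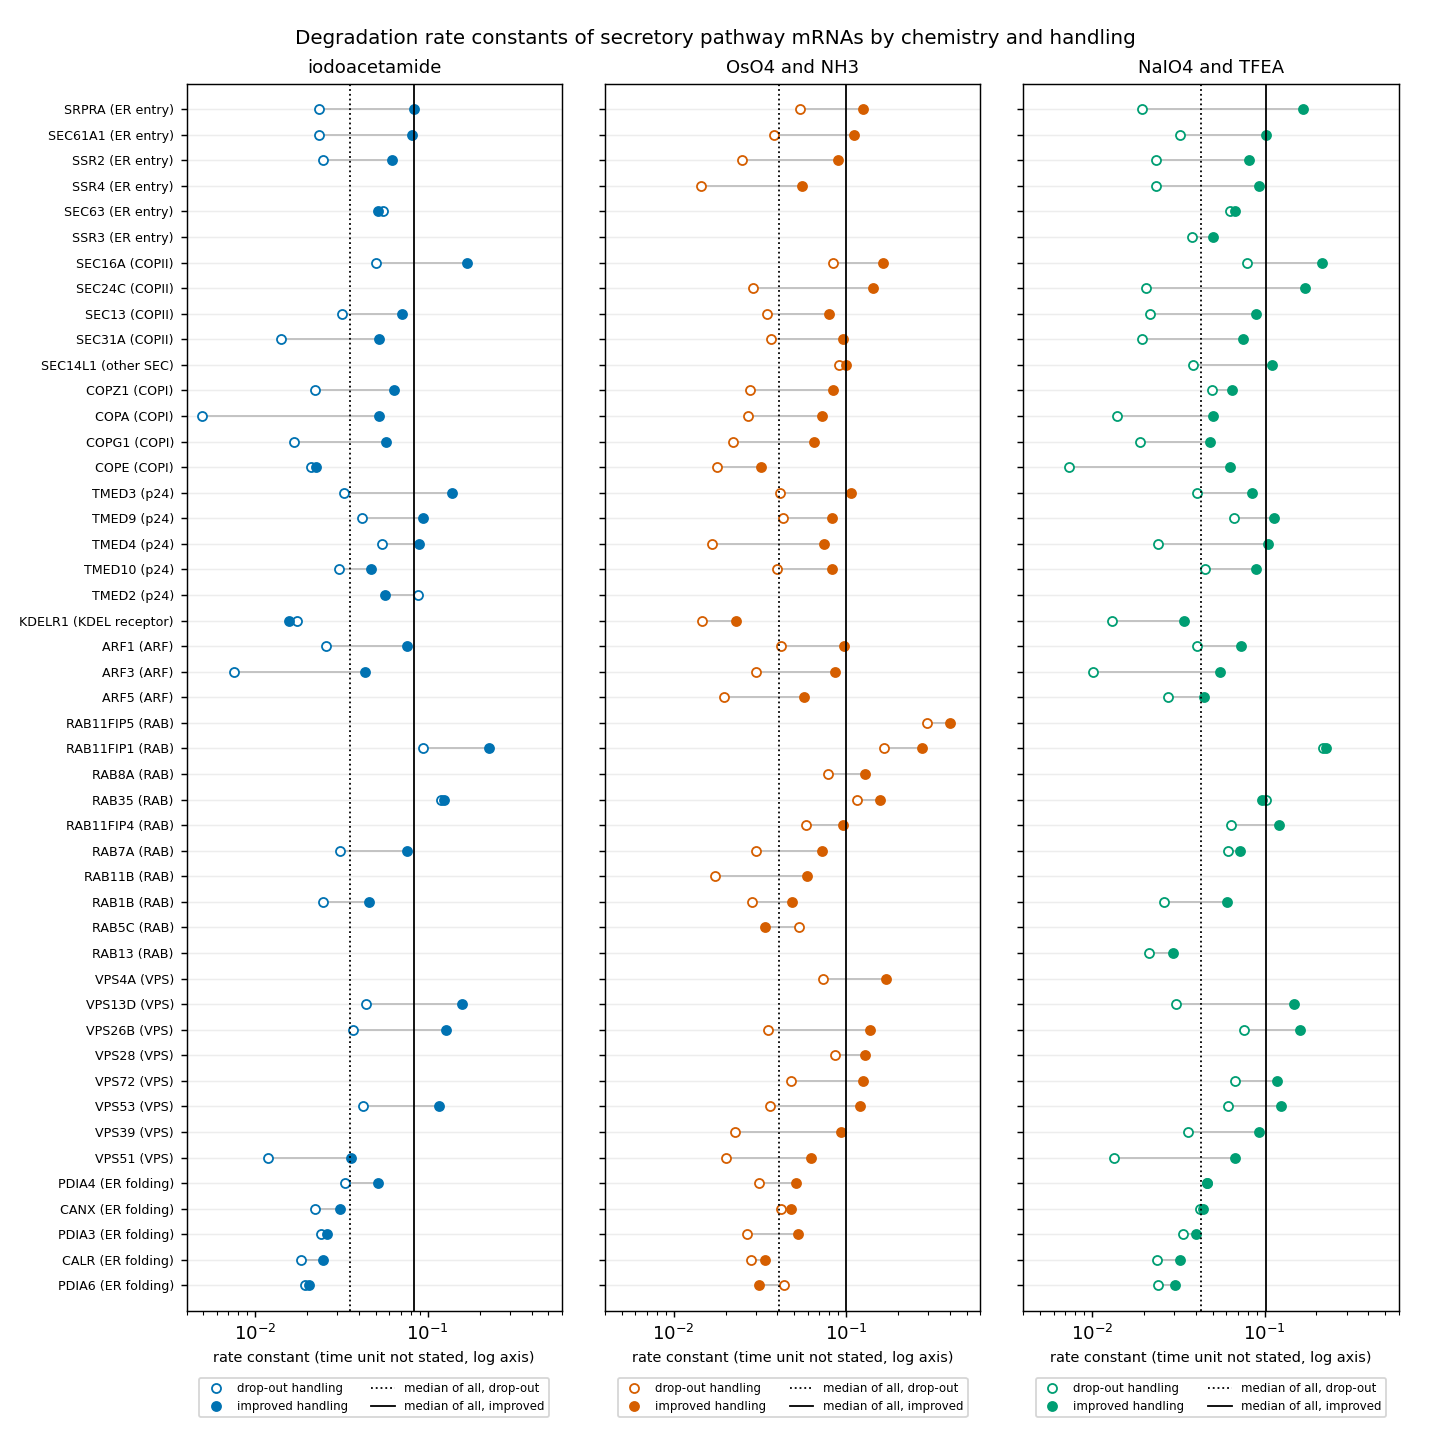
Rate constants of the 47 members (log axis, time unit not stated), 1 panel per chemistry. Open circles are drop-out handling, filled circles improved handling, and lines are the medians of all transcripts of that chemistry (dotted, drop-out; solid, improved). The improved constants of the 5 ER folding mRNAs at the bottom lie left of the solid median in each panel. Their lines are of unequal length. In the authors' deposited table their log2 changes ran from −0.45 for PDIA6 to 1.04 for PDIA3, both with OsO4.

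To compare the handlings over repeats, the 3 chemistries were taken as 3 paired measurements of the handling change, and limma was fitted to the log2 constants of the 1471 transcripts that all 3 had measured. Each chemistry's constant rests on its own libraries, but the RNA was of 1 cell line. The sample labels do not say whether the chemistries shared the same labelled cells or RNA. The p-values therefore speak of the spread between chemistries and may not cover that between repeats of the handling. After Benjamini-Hochberg adjustment over all 1471, 22 of 29 members were higher under improved handling, against 79.6% of all transcripts, and none was lower, against 1.43%. All 3 improved constants lay above all 3 drop-out constants in 23 of 29 members, against 78.5%. The other 6 were CALR, CANX, PDIA3, PDIA6, KDELR1 and RAB35. Since the whole table shifted by a median of 1.15 on the log2 scale, a second limma fit measured each change relative to the median change of its chemistry. In that fit 5 of 29 members were lower than the median change (PDIA6, RAB35, CANX, CALR and PDIA4), against 19.3% of all transcripts. Another 4 were higher (ARF3, VPS51, SEC31A and SEC61A1), against 18.6%, and none of these 4 kept the call in all fits that left out a chemistry: 2 members were called without iodoacetamide (VPS51 and TMED4), 1 without OsO4 (ARF3) and 0 without NaIO4. Over all transcripts these calls fell too, from 273 to 218, 84 and 191 of 1471. With each column set on its median level in place of the median change, ARF3 alone was relatively higher, against 191 of the 1471 transcripts, and 6 were lower, PDIA3 added to the 5, against 391. In the fit relative to the median change both shares of members, 17.2% lower and 13.8% higher, are close to the background. On column medians the higher share, 1 of 29 against 13% of all transcripts, is below it. The lower share there is 6 of 29 against 26.6%. These counts are small and do not set the set as a whole apart, so its role groups are described one by one.

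**Figure D2:**
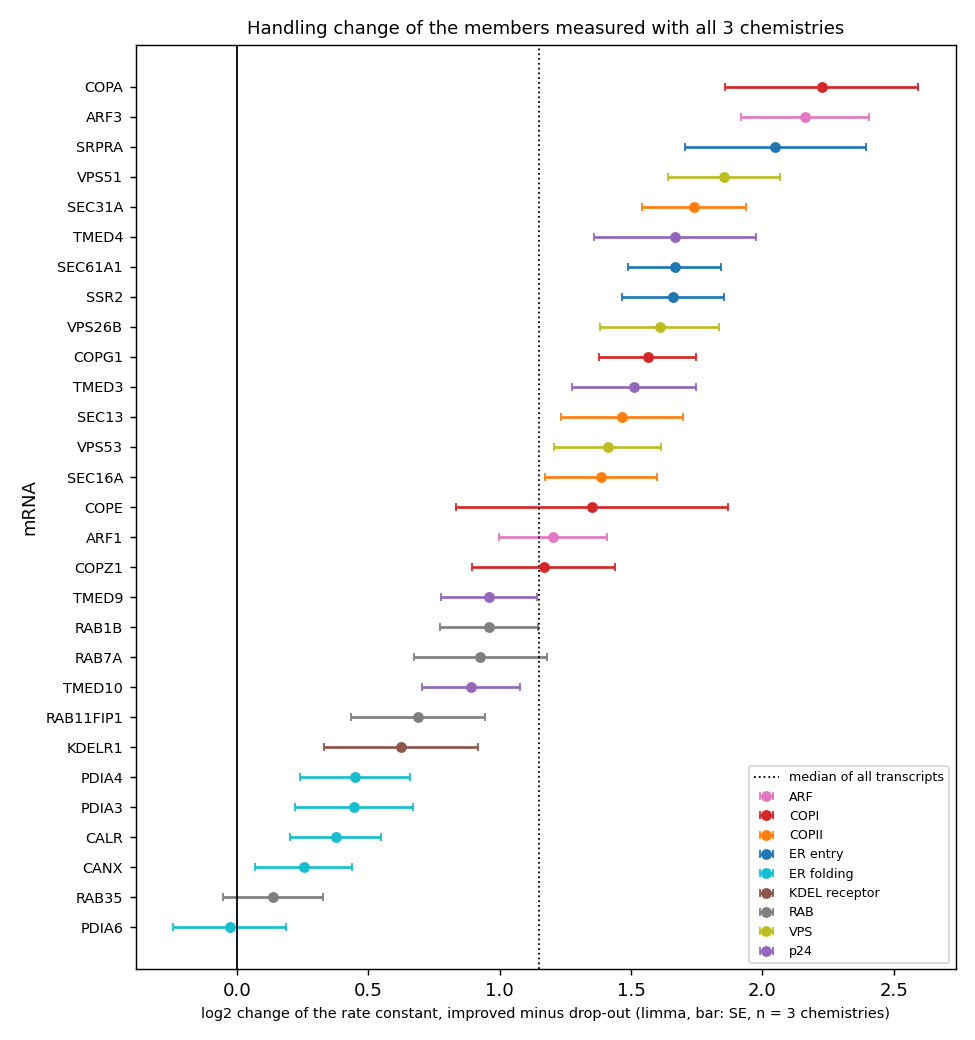
Log2 change of the rate constant, improved minus drop-out handling, for the 29 members measured with all 3 chemistries (limma estimate, bar: SE, n = 3 chemistries). The dotted line is the median of all 1471 transcripts, 1.15. All 5 ER folding mRNAs lie between −0.03 and 0.45, and the COPI, COPII and translocation mRNAs all lie at 1.17 or more.

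The ER folding mRNAs had the lowest median change of the role groups in the limma fit, 0.38 over 5 genes. These are CALR and CANX, which encode the lectin chaperones calreticulin and calnexin, and PDIA3, PDIA4 and PDIA6, which encode disulfide isomerases. PDIA3 works together with the lectin chaperones on glycoproteins. In the authors' deposited table none of the 5 was called in either direction with each chemistry, and their median log2 change was 0.41 with iodoacetamide, 0.29 with OsO4, and 0.30 with NaIO4. In that table KDELR1 with iodoacetamide (−0.19) and SEC14L1 with OsO4 (0.16), each alone in its group, changed less. In the limma fit also 0 of 5 passed (all 5 at an unadjusted p above 0.05), where 79.6% of all transcripts were higher, while 4 of 5 were lower than the median change, where 19.3% were. The other one was PDIA3.

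PDIA6 had drop-out constants of 0.0196 with iodoacetamide, 0.0439 with OsO4, and 0.0241 with NaIO4. Its improved constants were 0.0205, 0.0314 and 0.0304 in the same order. The handlings overlapped, and OsO4 gave the only higher drop-out value. The limma change was −0.03 (SE 0.22, adjusted p = 0.907), and relative to the median change it was −1.16 (adjusted p = 0.00908).

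CALR, the soluble lectin chaperone, had drop-out constants of 0.0185, 0.0280 and 0.0239 and improved constants of 0.0246, 0.0340 and 0.0324. Each chemistry moved up slightly, and the handlings overlapped. The limma change of CALR was 0.38 (SE 0.17, adjusted p = 0.0803), or −0.75 relative to the median change (adjusted p = 0.0176). Its rank under improved handling was the tightest of the members, percentile 7.38, 7.43 and 7.51.

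CANX, its membrane-bound relative, had drop-out constants of 0.0221, 0.0418 and 0.0422 and improved constants of 0.0312, 0.0481 and 0.0441. The limma change of CANX was 0.25 (SE 0.18, adjusted p = 0.233), and −0.88 relative to the median change (adjusted p = 0.0136). CANX lay at percentile 43.8 ± 11 (SD, n = 3) under drop-out and at 14.7 ± 1.80 under improved handling. It was thus an mRNA of middle rank under one handling and a slow one under the other.

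PDIA4 had drop-out constants of 0.0332, 0.0313 and 0.0462 and improved ones of 0.0515, 0.0510 and 0.0464, so its groups did not overlap, with the lowest improved value just above the highest drop-out value, both from NaIO4. Its limma change was 0.45 (SE 0.21, adjusted p = 0.0825), and −0.68 relative to the median change (adjusted p = 0.0439). Without NaIO4 the PDIA4 change was 0.67 and was called (adjusted p = 0.0402). PDIA3 had drop-out constants of 0.0241, 0.0267 and 0.0337 and improved ones of 0.0260, 0.0526 and 0.0400, so its handlings overlapped. Its change with OsO4 was 1.04 in the authors' deposited table (adjusted p = 0.125), against 0.12 with iodoacetamide and 0.30 with NaIO4. In limma PDIA3 changed by 0.45 (SE 0.22, adjusted p = 0.103) and by −0.68 relative to the median change (adjusted p = 0.0536).

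The ranks of all 5 fell in each of the 3 chemistries. That course was shared by 10 of 29 members and by 34.5% of all transcripts, so the fall in rank is common in the table and the set's share equals it. The median rank of the 5 went from 31.1 to 8.56 with iodoacetamide, from 38.6 to 16.6 with OsO4, and from 39.6 to 11.5 with NaIO4. Without OsO4 RAB35 was the sole member called lower than the median change, while over all transcripts these calls fell from 284 to 108, and PDIA6 had an adjusted p of 0.0599. The relative changes of the 5 themselves kept their sign, from −0.96 to −0.72 without OsO4. Without NaIO4 the calls were CALR, PDIA6 and RAB35, and without iodoacetamide CALR, CANX, PDIA6 and RAB35, each time among 201 transcripts.

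The size of the change also went with the drop-out constant, which is itself part of the change. Over all transcripts, the median log2 change in the authors' deposited table went from 1.71, 1.87 and 1.85 in the slowest of 4 equal groups by drop-out constant to 0.47, 0.48 and 0.47 in the fastest. In the second group it was 1.41, 1.44 and 1.47 and in the third 1.08, 1.11 and 1.06. The ER folding mRNAs lay mostly in these middle groups, with changes of −0.45 to 1.04 in the authors' deposited table.

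**Figure D3:**
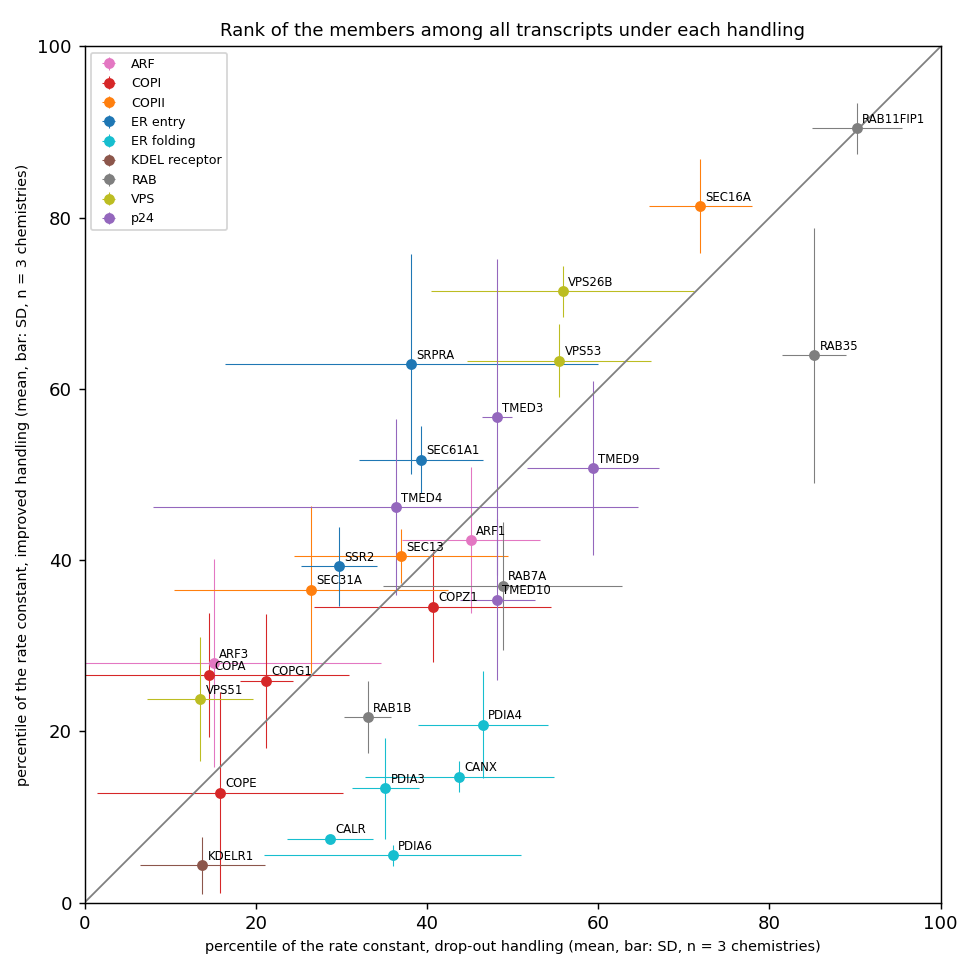
Percentile of the rate constant among all transcripts under drop-out (x) and improved handling (y), mean over 3 chemistries with SD bars, for the 29 members measured with all 3. On the diagonal the rank is equal. The 5 ER folding mRNAs lie below it, with means of 28.7 to 46.5 on x and 5.50 to 20.8 on y, and SRPRA, SEC61A1, SEC31A, COPA and VPS51 lie above it.

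Of the 4 ER folding genes with a promoter window, 3 hold a shared motif. The stretches that hold it are shown because the members with it are 3 of the 4 with the smallest limma changes (RAB35 is the other one). Picked by these values, they cannot test a link between motif and change, and none was tested. PDIA3 and PDIA4, for which no match was found, changed by 0.45 each, near the 0.38 of CALR. The element is known as a motif of folding genes, so its presence in them is a description. Promoter windows were 250 bases before to 50 bases after each RefSeq start on GRCh38.p14, and 38 of the 47 members had one. The ER stress element was searched as CCAAT, any 9 bases and CCACG on both strands. It was found in 27 of 35116 windows (0.0769%) and in 8 of the 2054 genes with both a window and a rate constant (0.389%). Among members it was in 3 of 38 (7.89%): CALR, CANX and PDIA6, which are 3 of the 4 ER folding genes with a window. The sequences run 5′ to 3′ on the strand of the gene, and capitals mark the motif, which in CALR lies on the opposite strand and so reads CGTGG, 9 bases and ATTGG:
CALR: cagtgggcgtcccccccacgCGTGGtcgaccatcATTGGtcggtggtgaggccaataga
CANX: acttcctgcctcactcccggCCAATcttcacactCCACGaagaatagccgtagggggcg
PDIA6: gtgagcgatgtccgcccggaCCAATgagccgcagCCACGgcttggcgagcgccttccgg

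The CALR stretch is chr19:12938364-12938422 (plus strand, GRCh38.p14), upstream of the gene at chr19:12938609-12944489, and its motif begins 225 bases before the start. The CANX stretch is chr5:179698758-179698816 (plus strand), and its motif begins 151 bases before an annotated start that lies inside the CANX locus (chr5:179678656-179731641). The same letters run across another annotated CANX start, beginning 9 bases before it. The PDIA6 stretch is chr2:10812833-10812891 (minus strand), and its motif begins 86 bases before a start inside the locus (chr2:10783391-10837712). A match is a description of these letters and no evidence that a factor binds there.

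The 8 genes of the rate table with this motif were ALG12, CALR, CANX, CRELD2, HSP90B1, HSPA5, PDIA6 and XBP1. HSPA5 and HSP90B1 encode the main heat-shock chaperones of the ER lumen, ALG12 an enzyme of N-glycan assembly, and XBP1 a transcription factor of the unfolded protein response. CALR, CANX and PDIA6 prompted the search, so only the other 5 genes are counted. HSPA5 and HSP90B1 are folding genes too, so these 5 are no independent check of the motif. As called in the authors' deposited table, 0 of 3 of these were higher with iodoacetamide, 0 of 5 with OsO4, and 2 of 4 with NaIO4 (HSPA5 and ALG12), where 48.9%, 48.1% and 52.6% of all transcripts were higher. Their median log2 changes there were 0.64, 0.45 and 0.69. Of the 3 measured with all 3 chemistries, 2 rose in the limma fit, against 79.6% of all transcripts, and so few genes set nothing apart from the rest. HSP90B1 rose by 0.62 (adjusted p = 0.0199) and HSPA5 by 0.52 (adjusted p = 0.0484). Relative to the median change all 3 were negative. XBP1 was called (−1.30, adjusted p = 0.00396), and HSPA5 (−0.61, adjusted p = 0.0501) and HSP90B1 (−0.51, adjusted p = 0.0685) were not. On column medians all 3 were called lower (adjusted p = 0.00243, 0.0244 and 0.0300), where 26.6% of all transcripts were. XBP1 was among the fastest-decaying transcripts, with percentiles of 97.2, 96.9 and 97.2 under improved handling, and its limma change was −0.17 (SE 0.17, adjusted p = 0.377). The mRNAs with the motif thus ranged from slow (PDIA6, CALR) to very fast (XBP1).

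**Figure D4:**
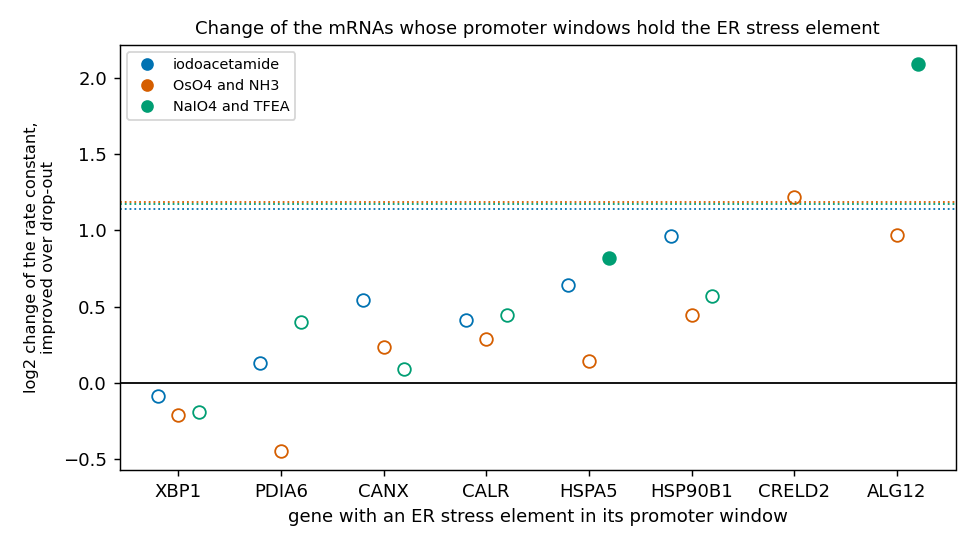
Authors' log2 change of the rate constant (improved over drop-out) for the 8 genes whose promoter windows hold the ER stress element, by chemistry. Filled points have an adjusted p under 0.05, and dotted lines are the medians of all transcripts of each chemistry, 1.14 to 1.19. Filled points are ALG12 and HSPA5 with NaIO4. CALR, CANX and PDIA6 prompted the search, so their points are a description.

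KDELR1 encodes a receptor that returns ER lumen proteins from the Golgi. Its constants were 0.0175, 0.0146 and 0.0131 under drop-out and 0.0156, 0.0231 and 0.0339 under improved handling, in the order iodoacetamide, OsO4, NaIO4. The handlings overlapped, since iodoacetamide gave a lower and the other two a higher improved value. Among the 29 members measured with all 3 chemistries KDELR1 had the lowest mean percentile under improved handling, 4.33 ± 3.37 (SD, n = 3). PDIA6, at 5.50 ± 1.28, did not differ from it beyond that spread, and with NaIO4 PDIA6 (6.52) and CALR (7.51) ranked below KDELR1 (8.19). Its limma change was 0.62 (SE 0.29, adjusted p = 0.0854), and 1.02 (adjusted p = 0.0105) without iodoacetamide.

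Of the mRNAs for entry into the ER, all 3 that every chemistry measured rose in the limma fit, where 79.6% of all transcripts did. SEC61A1, the pore of the translocon (chr3:128051641-128071683), had drop-out constants of 0.0233, 0.0383 and 0.0323 and improved constants of 0.0811, 0.111 and 0.103. Its groups were far apart, and the change was 1.67 (SE 0.18, adjusted p = 0.000284). SEC61A1 was also higher than the median change, by 0.54 (adjusted p = 0.0498), which is at the threshold. When a chemistry was left out the relative change was 0.47 to 0.59, and the call was lost each time (adjusted p = 0.121 to 0.162).

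SRPRA, a subunit of the SRP receptor, had drop-out constants of 0.0236, 0.0540 and 0.0194 and improved constants of 0.0831, 0.126 and 0.168. It rose by 2.05 (SE 0.35, adjusted p = 0.00143), and its rank under improved handling ran from percentile 49.8 to 75.5. The highest improved value came with NaIO4, which also gave the lowest drop-out value. SSR2, a subunit of the translocon-associated TRAP complex, rose by 1.66 (SE 0.19, adjusted p = 0.000351). SSR4 of the same complex was measured with 2 chemistries and had log2 changes of 2.04 and 2.02 in the authors' deposited table, both called.

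SEC63 and SSR3 did not follow. SEC63, which helps to feed proteins through the channel, had constants of 0.0553 and 0.0630 under drop-out and of 0.0516 and 0.0679 under improved handling with iodoacetamide and with NaIO4. Its log2 changes by the authors' deposited table were −0.03 and 0.18, with adjusted p-values of 0.959 and 0.777. SSR3 had 1 measurement, with a log2 change of 0.53 there (adjusted p = 0.537). Within the TRAP complex, then, SSR2 and SSR4 were called in each chemistry that measured them and SSR3 was not, a difference that was not tested.

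The 3 mRNAs of the COPII group measured with every chemistry rose as well, against the same 79.6%. SEC13 and SEC31A form the outer cage, SEC24C is a cargo-binding inner subunit, and SEC16A organises ER exit sites. SEC31A had constants of 0.0141, 0.0366 and 0.0194 under drop-out and of 0.0519, 0.0956 and 0.0753 under improved handling. The groups did not overlap, and the limma change was 1.74 (SE 0.20, adjusted p = 0.000323), or 0.61 relative to the median change (adjusted p = 0.0473, and 0.0756 to 0.165 when a chemistry was left out). SEC13 rose by 1.46 (SE 0.23, adjusted p = 0.00112) and SEC16A by 1.39 (SE 0.21, adjusted p = 0.000952).

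SEC16A was the fastest-decaying of these mRNAs, with improved constants of 0.169, 0.164 and 0.216 and a mean percentile of 81.4 ± 5.47 (SD, n = 3). The cage subunits SEC13 and SEC31A stood at 40.5 ± 3.17 and 36.6 ± 9.77 and did not differ beyond their spread. SEC24C, measured with OsO4 and with NaIO4, went from 0.0289 to 0.143 and from 0.0205 to 0.172. Its log2 changes of 2.35 and 3.13 by the authors' deposited table were among the largest of the members (adjusted p = 0.000265 and 1.47e-06).

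All 4 COPI coat mRNAs rose in the limma fit, as 79.6% of all transcripts did. COPA had constants of 0.00494, 0.0270 and 0.0140 under drop-out and of 0.0522, 0.0723 and 0.0506 under improved handling. Its drop-out value with iodoacetamide was the lowest of any member, and the improved values were close together. COPA rose by 2.23 (SE 0.37, adjusted p = 0.00130), and by 1.10 relative to the median change (adjusted p = 0.0561). COPG1 rose by 1.56 (SE 0.18, adjusted p = 0.000372) and COPZ1 by 1.17 (SE 0.27, adjusted p = 0.00593), a call that COPZ1 lost without OsO4 (0.95, adjusted p = 0.0547).

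COPE was the uneven one. Its constants were 0.0210, 0.0179 and 0.00733 under drop-out and 0.0225, 0.0323 and 0.0631 under improved handling. The chemistries disagreed on both sides: iodoacetamide moved little and NaIO4 moved most. The limma change of 1.35 (SE 0.52, adjusted p = 0.0440) was no longer called without OsO4 (1.60, adjusted p = 0.100) or without NaIO4 (0.47, adjusted p = 0.181). Under improved handling the 4 COPI mRNAs had mean percentiles of 12.8 to 34.6.

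ARF1 and ARF3 are closely related GTPases that recruit COPI and other coats. ARF1 had constants of 0.0257, 0.0422 and 0.0407 under drop-out and of 0.0758, 0.0976 and 0.0728 under improved handling. ARF3 had 0.00753, 0.0302 and 0.0101 and then 0.0434, 0.0866 and 0.0549. Neither pair of groups overlapped, and ARF3 was slower than ARF1 in each of the 6 settings. ARF1 rose by 1.20 (SE 0.20, adjusted p = 0.00147) and ARF3 by 2.16 (SE 0.24, adjusted p = 0.000323), and relative to the median change ARF3 was higher by 1.03 (adjusted p = 0.0194; 0.0565 without iodoacetamide and 0.0592 without NaIO4). ARF5 was called with OsO4 (1.57, adjusted p = 0.0366) and not with NaIO4 (0.68, adjusted p = 0.399) in the authors' deposited table.

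The p24 family (TMED) consists of cargo receptors that cycle between the ER and the Golgi, and all 4 members measured with every chemistry rose, against 79.6% of all transcripts. TMED4 rose by 1.67 (SE 0.31, adjusted p = 0.00212), TMED3 by 1.51 (SE 0.24, adjusted p = 0.00103), TMED9 by 0.96 (SE 0.18, adjusted p = 0.00246) and TMED10 by 0.89 (SE 0.19, adjusted p = 0.00369). TMED9 and TMED10 lay below the median change by 0.17 and 0.24 (adjusted p = 0.479 and 0.331). TMED3 had improved constants of 0.138, 0.107 and 0.0849, and its rank ran from percentile 39.8 to 76.5, the widest range of the members. TMED2, with iodoacetamide alone, went from 0.0881 to 0.0569, a log2 change of −0.61 in the authors' deposited table (adjusted p = 0.357).

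The RAB genes held both the fastest mRNAs of the set and some that hardly changed. RAB11FIP1 and RAB11FIP5 are no GTPases but effectors that bind RAB11. RAB11FIP1 had constants of 0.0945, 0.165 and 0.220 under drop-out and of 0.228, 0.277 and 0.228 under improved handling, and stood at percentile 90.4 ± 2.97 (SD, n = 3). RAB11FIP5 went from 0.293 to 0.402 with OsO4. RAB11FIP1 rose by 0.69 (SE 0.26, adjusted p = 0.0394; −0.44 relative to the median change), a call that was lost without iodoacetamide (adjusted p = 0.203) or without OsO4 (adjusted p = 0.147).

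Among the GTPases, RAB35, which acts in endocytic recycling, had constants of 0.119, 0.116 and 0.102 under drop-out and of 0.124, 0.157 and 0.0966 under improved handling. Its groups overlapped. Its change of 0.14 (SE 0.19, adjusted p = 0.524) was lower than the median change by 0.99 (adjusted p = 0.0106), and its rank fell from percentile 85.2 ± 3.69 to 63.9 ± 14.9. RAB1B, which acts between the ER and the Golgi, rose by 0.96 (SE 0.19, adjusted p = 0.00260) and the late-endosomal RAB7A by 0.93 (SE 0.25, adjusted p = 0.0121), though relative to the median change they stood at −0.17 and −0.20. The RAB7A call was lost without iodoacetamide (adjusted p = 0.0547) or without OsO4 (adjusted p = 0.0889).

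Other RAB genes had 1 or 2 measurements. RAB11B went from 0.0174 to 0.0590 with OsO4, a log2 change of 1.85 that the authors' deposited table called (adjusted p = 0.0394). RAB5C, of early endosomes, went from 0.0531 to 0.0341, with a log2 change of −0.62 there (adjusted p = 0.471). RAB8A, RAB13, RAB11FIP4 and RAB11FIP5 had log2 changes of 0.48 to 0.95 in the authors' deposited table, none called. In that table, calls were made for 2 of 4 RAB genes with iodoacetamide, 1 of 9 with OsO4 and 1 of 6 with NaIO4, where 48.9%, 48.1% and 52.6% of all transcripts were.

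Most VPS genes belong to complexes of endosomal and lysosomal sorting, and all 3 that every chemistry measured rose, against 79.6% of all transcripts. VPS51 and VPS53 are subunits of the tether GARP, and VPS26B is part of retromer. VPS51 had constants of 0.0118, 0.0200 and 0.0134 under drop-out and of 0.0360, 0.0623 and 0.0670 under improved handling. The groups did not overlap, and the change was 1.86 (SE 0.21, adjusted p = 0.000333), or 0.73 relative to the median change (adjusted p = 0.0359). That relative call stayed without iodoacetamide (0.85, adjusted p = 0.0458). It was lost without OsO4 (0.83, adjusted p = 0.0982), without NaIO4 (0.50, adjusted p = 0.153) and on column medians (0.56, adjusted p = 0.0757). VPS26B rose by 1.61 (SE 0.23, adjusted p = 0.000665) and VPS53 by 1.41 (SE 0.20, adjusted p = 0.000773).

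The 2 GARP mRNAs decayed at different rates. VPS53 had improved constants of 0.117, 0.120 and 0.125, above those of VPS51 in each chemistry, and their mean percentiles were 63.3 ± 4.23 and 23.8 ± 7.22 (SD, n = 3). VPS13D, a lipid transfer protein, went from 0.0441 to 0.157 and from 0.0308 to 0.148, both called in the authors' deposited table. In the same table VPS4A and VPS39 were called with OsO4 (1.24 and 2.22), and VPS28 was not (0.62, adjusted p = 0.358). VPS39 was not called with NaIO4 in the authors' deposited table (1.47, adjusted p = 0.0676). VPS72 fits the name pattern but encodes a subunit of chromatin complexes, and SEC14L1 shares its prefix with the SEC genes without being a part of the coats or the channel. They had log2 changes of 0.82 to 1.46 and of 0.16 to 1.61 in the authors' deposited table.

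Over the 29 members measured everywhere, the authors' deposited table called 11 with all 3 chemistries, 5 with 2, 6 with 1 and 7 with none. Of all 1471 transcripts 36.2%, 17.3%, 16.9% and 29.6% fell into these classes, so the members' 11 and 7 of 29 lie near the background. The 7 were the 5 ER folding mRNAs, RAB35 and TMED10. In rank, 8 members rose in each of the 3 chemistries (ARF3, COPA, SEC31A, SEC61A1, SRPRA, SSR2, VPS26B and VPS51), against 28.7% of all transcripts. The chemistries ordered the members more alike under improved than under drop-out handling: Spearman's rho across the 29 genes was 0.87, 0.87 and 0.85 between pairs of improved constants and 0.47, 0.79 and 0.63 between drop-out constants. Over all 1471 transcripts it was 0.92 to 0.94 and 0.90 to 0.92. These correlations are descriptions, since genes are no independent replicates and the constants of 1 chemistry share its libraries.

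Other genes of the pathway, taken from 6 lists, were read in the same limma fit. Of 10 further ER chaperones and folding enzymes 9 rose, with a median change of 0.90, but the group was split. P4HB, another protein disulfide isomerase, changed by 0.36 (adjusted p = 0.119) and was lower than the median change by 0.77 (adjusted p = 0.0221). OS9, which hands misfolded glycoproteins to degradation, rose by 1.91 (adjusted p = 0.000263), and GANAB, a glucosidase that trims glycans for the lectin chaperones, by 1.80 (adjusted p = 0.000358). Both were higher than the median change, OS9 by 0.78 (adjusted p = 0.0241) and GANAB by 0.67 (adjusted p = 0.0469). On column medians OS9 kept that call (adjusted p = 0.0419) and GANAB lost it (adjusted p = 0.0906). Low change was thus seen for part of the folding machinery and not for all of it.

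Of 9 other genes of ER entry, such as SRP, EMC and oligosaccharyltransferase subunits, 8 rose, with a median of 0.78. The exception was SRP14 (0.52, adjusted p = 0.0778), while STT3A, the catalytic subunit of oligosaccharyltransferase, rose by 1.65 (adjusted p = 0.000458). Of 4 regulators of the unfolded protein response 3 rose, ATF4 by 1.54 (adjusted p = 0.000439), and XBP1 was the exception. All 5 genes of Golgi structure, cargo reception and ER export rose, by 0.79 to 1.08. Of 14 genes of clathrin, adaptors and ESCRT 12 rose, with the clathrin light chains CLTA (0.45, adjusted p = 0.184) and CLTB (0.58, adjusted p = 0.0661) as exceptions. Of 8 genes of the list of ARF and RAB regulators and the exocyst 7 rose, with AGAP1 (0.35, adjusted p = 0.130) as the exception. GBF1, the exchange factor that activates ARF1 at the Golgi, rose by 2.50 (adjusted p = 0.000179). Relative to the median change, 5 of the 14 clathrin, adaptor and ESCRT genes were higher, against 18.6% of all transcripts. So were 4 of the 8 genes of ARF and RAB regulation and the exocyst, and 1 of the 8 was lower. On column medians AP2B1 and GGA3 of the clathrin and adaptor list lost the higher call (adjusted p = 0.0501 and 0.122). DENND5A of the ARF and RAB list lost it too (adjusted p = 0.110). In the lists of ER entry, unfolded protein response and Golgi genes none was relatively higher. Each list is to be read against the 79.6% of all transcripts that rose.

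A second promoter motif was found in another part of the set. The core of the unfolded protein response element, TGACGTG on either strand, overlaps with the cAMP response element, and it was in 692 of 35116 windows (1.97%) and in 76 of the 2054 genes with a rate constant (3.70%). Of the 38 members with a window 8 held it (21.1%): ARF1, COPA, COPE, SEC13, SEC16A, SEC61A1, SSR3 and SSR4. None of the 4 ER folding genes did. The stretches of ARF1, the coat gene SEC13 and 2 TRAP genes are shown for the place of the motif before the start, with the motif in capitals (CACGTCA where it lies on the strand opposite to the gene):
ARF1: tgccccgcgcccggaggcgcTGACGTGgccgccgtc
SEC13: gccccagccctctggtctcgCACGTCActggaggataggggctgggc
SSR3: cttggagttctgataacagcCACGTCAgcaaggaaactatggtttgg
SSR4: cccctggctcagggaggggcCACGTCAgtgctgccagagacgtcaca

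These lie at chr1:228082672-228082707 (plus strand), chr3:10321229-10321275 (minus), chr3:156554139-156554185 (minus) and chrX:153794520-153794566 (plus) on GRCh38.p14, and the motifs begin 16, 143, 40 and 128 bases before an annotated start, which for SSR3 and SSR4 lies inside the locus. All 6 genes with this motif that every chemistry measured rose in the limma fit, by 1.20 to 2.23, as 79.6% of transcripts did. The ER stress element II, ATTGG, any 1 base and CCACG, was in 0.0541% of windows and in no member's window.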

How the data were processed

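RNA from HEK293T cells was sequenced in 18 libraries of 3 chemistries, and the series' 10 samples of 5 further chemistries were left out, not analysed here. The authors deposited read counts by number of T-to-C mismatches, used here for library totals (HISAT-3N rows of setting D for both handlings). They also deposited bakR rate constants (a score with no stated time unit), the log2 fold change between handlings and an adjusted p-value (per the labels). Per the submitters' processing notes, reads went through cutadapt, HISAT2, STAR, Picard, HTSeq and DESeq2 on GRCh38; versions and roles are not given in the sources used here. The deposited log2 value lies within 0.352 of the log2 ratio, improved over drop-out. SLAM rows were read as iodoacetamide, TUC as OsO4 and TimeLapse as NaIO4 and TFEA, from sample titles.

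Members and lists were chosen with earlier results of these data known. All 47 members matched a RefSeq symbol. Limma 3.58.1 (R 4.3.3, chemistry and handling as terms, Benjamini-Hochberg over 1471 transcripts) was chosen after seeing the table. It was run on simulated data with independent errors, where a minority of transcripts changed, equally up and down. Most real transcripts rose, so that run does not test the fits relative to the median change. The naming rule took the extremes of rank in each role group and the extremes of change over all members per chemistry. It also took the widest and narrowest ranges of rank, plus complexes. Further members, and the genes of the lists, were named outside that rule. The count table names genes by identifiers that could not be paired with symbols, so 3 planned count tests were not run. Alternatives were a stricter threshold, 2-fold calls, centring, other transcript sets, the mean and leaving out a chemistry.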

Additional observations from a re-analysis of the deposited data

Results flagged for a closer look

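For 4 members the chemistries gave log2 changes of opposite sign, and the difference between chemistries was not tested, since each has 1 value. KDELR1 had the widest gap, 1.61 on the log2 scale, from −0.19 with iodoacetamide to 1.41 with NaIO4 in the authors' deposited table. PDIA6 had a gap of 0.85, from −0.45 with OsO4 to 0.40 with NaIO4. RAB35 had a gap of 0.54, from −0.07 with NaIO4 to 0.47 with OsO4. SEC63, measured with 2 chemistries, had a gap of 0.21, from −0.03 with iodoacetamide to 0.18 with NaIO4. The negative values came from a different chemistry in PDIA6 and RAB35, and from iodoacetamide in KDELR1 and SEC63.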

How the results depend on the processing

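Counts of called members fell with an adjusted p under 0.01, to 8 of 32 with iodoacetamide, 7 of 42 with OsO4 and 13 of 40 with NaIO4, where 32.4%, 27.0% and 33.5% of all transcripts were called. The members' median log2 change less that of all transcripts was 0.18, 0.052 and −0.079 in that order. The mean of the members' log2 changes, with nothing subtracted, was 1.18 with iodoacetamide and 1.28 with NaIO4. Under 2-fold calls, the log2 ratio of the constants, transcripts of all 3 chemistries and whole family names, the counts moved by less than 1.5 times (the largest move was with OsO4, from 22 to 15 when transcripts without all 3 chemistries were left out). Where these settings apply, the medians and median ranks moved by less than 1 SD of the main values over the 3 chemistries. In limma, 4 members were higher relative to the median change. When a chemistry was left out, the count of members higher than it ranged from 0 to 2 (over all transcripts from 84 to 218), and the count lower than it from 1 to 4 (from 108 to 201). On column medians in place of the median change, 391 transcripts were relatively lower and 191 higher (284 and 273 before), with 6 members lower and 1 higher. Relative to the median change, RAB11FIP1 (−0.44), RAB7A (−0.20), RAB1B (−0.17), TMED9 (−0.17) and TMED10 (−0.24) turned negative, none called. Leaving out a chemistry gave −0.21 to 0.20 for PDIA6 and −0.014 to 0.25 for RAB35. The cause was not tested. By replicate number no paired analysis was possible because the table holds 1 constant per transcript, chemistry and handling (limma paired the handlings by chemistry); the 3 count tests with their alternatives, the replicate block included, were not run, since gene identifiers could not be paired with symbols. Depth per member is unknown, and HEK293T is 1 line.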
